A study of Mus musculus with 9 samples.

Results

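Acot1, Acot2, Pdk4, Ucp2, Ucp3, Angptl4, Plin2 and Plin5 are target genes of the peroxisome proliferator-activated receptors (PPARs) known for their response to fasting in skeletal muscle. These 8 genes were taken by symbol from the 23238 gene symbols of the count tables, and each symbol stood on 1 row. They were chosen by their CPM in these same 3 groups, with earlier results of the libraries known, so their levels and fold changes are given as a description, without a test of their own. No group was labelled as fasted, and food intake is not given in the labels, so the word fasting names where the genes are known from and not a treatment of these mice.

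RNA was read by 3′ tag sequencing from the gastrocnemius, a calf muscle, of female C57BL/6 mice that were 4 weeks of age at purchase, had 7 days to acclimate and ate a standard diet. The RP group (3 libraries) received 4 intraperitoneal injections of cisplatin at 3 mg/kg, 1 every other day, and RP by mouth at 100 mg/kg for 9 days. The labels do not spell out RP, and the series title names an extract of Paeonia lactiflora. The Cisplatin group (3 libraries) received the same injections with cisplatin, a platinum compound used against tumours that damages DNA, with water by mouth for 9 days. The Normal group (3 libraries) received 4 saline injections on the same schedule and oral water for 9 days. The RP group thus carried the cisplatin treatment too, and RP without cisplatin was not analysed here.

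PPARs are nuclear receptors that bind fatty acids, pair with retinoid X receptors (RXRs) and switch on genes for taking up, storing and burning fat. PPAR alpha and PPAR delta are the forms best known in muscle, whereas PPAR gamma is best known as the master regulator of fat cells. In a fasted animal, fatty acids released from adipose tissue reach the muscle and bind these receptors, and the muscle shifts from glucose to fat.

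Libraries held 9178613 to 9826089 counts in the RP group, 8352397 to 10678342 in the Cisplatin group and 8196030 to 8677236 in the Normal group. Levels are CPM, counts scaled to a common library total, after TMM scaling, which corrects that total for a few genes that take a large share. In this method each transcript is meant to give 1 tag, so CPM was not divided by gene length. How evenly tags represent different genes was not checked, so levels set side by side between genes are approximate. Rn45s, a ribosomal RNA precursor, took 7.38% to 11.8% of counts in RP, 9.23% to 12.1% in Cisplatin and 12.6% to 12.8% in Normal libraries. Markers of the labelled tissue were present, with 10 skeletal muscle genes summing to 110586 to 124691 CPM in RP libraries, 81231 to 100297 CPM in Cisplatin libraries and 106191 to 114596 CPM in Normal libraries. At an edgeR adjusted p under 0.05, 5 of these genes fell and 2 rose in Cisplatin against Normal, beside 28.2% and 26.3% of all genes. In RP against Cisplatin, 5 rose and 1 fell, beside 24.6% and 24.2% of all genes. The labels do not say that each library came from its own mouse, so p-values measure the spread between these libraries. In whole muscle, fewer cells of a type and less RNA per cell cannot be told apart.

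In Cisplatin muscle, the thioesterases Acot1 and Acot2, the kinase Pdk4, the uncoupling protein gene Ucp3, the lipase inhibitor Angptl4 and the lipid droplet gene Plin5 stood 3.87-fold to 44.5-fold above Normal muscle. Ucp2 was 1.65-fold higher, and Plin2 differed by 1.2-fold, with overlapping groups. Of the 8 genes, 7 passed the edgeR test upward at an adjusted p under 0.05, and none passed it downward. Of all 12859 genes tested, 26.3% passed upward and 28.2% downward. The same 7 genes had groups that did not overlap, Cisplatin being higher, as had 30.3% of all genes. Since the 8 genes were chosen with this comparison known, nothing is read from these differences. The median log2 fold change was 2.17 over the 8 genes and -0.08 over all genes tested.

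In RP muscle, 6 of the 8 genes were lower than in Cisplatin muscle and passed the test downward, namely Acot1, Acot2, Pdk4, Ucp3, Angptl4 and Plin5. Among all genes tested, 24.2% passed downward and 24.6% upward in RP against Cisplatin. The same 6 genes had groups without overlap, RP being lower, as had 27.8% of all genes. Ucp2 and Plin2 overlapped between the groups, at log2 fold changes of -0.54 ± 0.25 for Ucp2 and -0.48 ± 0.26 for Plin2 (SE, n = 3 each). The median of the 8 was -1.57, against 0.07 over all genes tested. This comparison and the one above share the Cisplatin libraries, so the opposite signs are not separate evidence.

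In RP muscle against Normal muscle, the 8 genes had log2 fold changes of -0.22 to 0.61, with a median of 0.40 against -0.01 over all genes. None of the 8 passed the edgeR test in either direction, none had an unadjusted p under 0.05, and DESeq2 and limma-voom also called 0. Over all genes, 0.505% passed in this comparison. Groups overlapped for all 8 genes, while 19.2% of all genes had groups without overlap. The SEs of the 8 values were 0.20 to 0.40, so a miss of the threshold does not show that RP and Normal muscle had the same level.

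**Figure D1:**
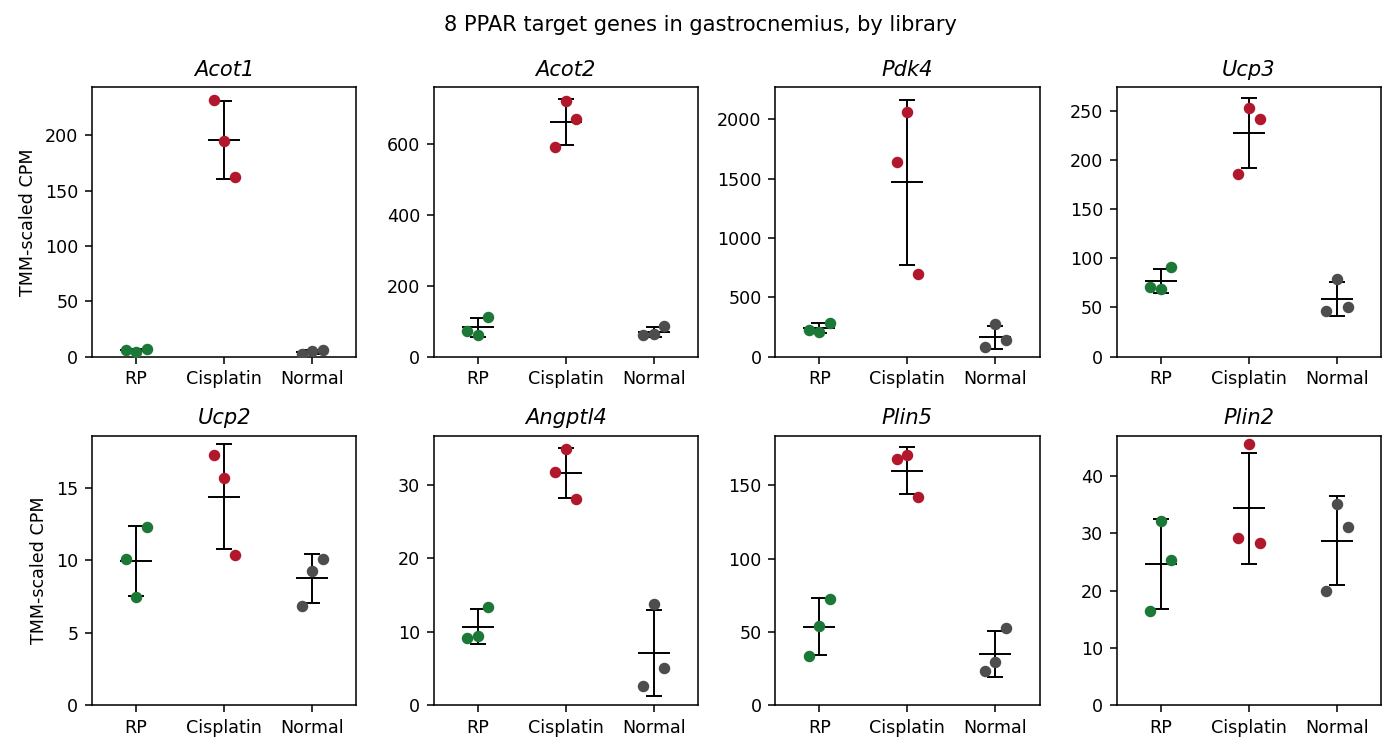
Level of each of the 8 genes in TMM-scaled CPM (y axis, starting at 0) in every library of the RP, Cisplatin and Normal groups (x axis). Points are libraries, the long bar is the mean and the error bar is 1 SD (n = 3 each). In the panels of Acot1, Acot2, Pdk4, Ucp3, Angptl4 and Plin5, all 3 Cisplatin points lie above all RP and Normal points.

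Acot1 and Acot2 encode acyl-CoA thioesterases that cut fatty acyl-CoA into free fatty acid and CoA, Acot1 in the cytosol and Acot2 in mitochondria. They lie side by side on the plus strand of chromosome 12 (GRCm38, GENCODE M21), Acot2 at 83987861 to 83993873 and Acot1 at 84009490 to 84018371, 15616 bp apart. Acot1 had 5.89, 4.67 and 6.86 CPM in RP libraries, 232, 195 and 162 CPM in Cisplatin libraries and 2.42, 4.86 and 5.90 CPM in Normal libraries. Every Cisplatin library stood far above every other, whereas RP and Normal libraries overlapped. These levels rest on 47 to 68 counts in RP libraries, 1359 to 2056 in Cisplatin libraries and 20 to 49 in Normal libraries. Acot1 had a log2 fold change of 5.48 ± 0.26 (SE, n = 3 each) in Cisplatin against Normal, the largest of the 8 genes. In RP against Cisplatin it was -5.08 ± 0.25, and in RP against Normal 0.40 ± 0.28.

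Acot2 was the more abundant of the pair. It had 73.9, 62.2 and 113 CPM in RP libraries, 593, 722 and 673 CPM in Cisplatin libraries and 60, 63.3 and 86.4 CPM in Normal libraries. All Cisplatin libraries again lay above all others, and the RP and Normal ranges overlapped. For Acot2, the log2 fold change was 3.25 ± 0.22 in Cisplatin against Normal, -3 ± 0.22 in RP against Cisplatin and 0.25 ± 0.21 in RP against Normal.

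The balance between the neighbours differed as well. RP libraries held 7.97, 7.51 and 6.07 Acot1 counts for every 100 Acot2 counts, Cisplatin libraries 39.1, 27.1 and 24, and Normal libraries 4.02, 7.68 and 6.82. Acot1 therefore took a larger part of the pair in all 3 Cisplatin libraries than in any other. The genes are close copies: 527 of the 2223 windows of 50 bases along the Acot1 transcript also occur in Acot2. Within the last 500 bases, where 3′ tags arise, 0 of 451 windows of Acot1 occurred in Acot2 or in Acot3 to Acot6, and 0 of 451 windows of Acot2 occurred in Acot1 or in those 4 genes.

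The windows from 250 bases before to 50 bases after the RefSeq gene start (GRCm38.p6) are shown for Acot1 and Acot2, the 2 genes with the largest fold changes in Cisplatin against Normal, and for Ucp3 and Plin2, whose windows came closest to the PPAR/RXR element. All read 5′ to 3′ on the gene's strand. Capitals mark AGGTCA on either strand and matches to AGGTCANAGGTCA, the direct repeat with 1 base between that PPAR and RXR bind, with at most 2 mismatches.
Acot1 (chr12:84009252-84009551, plus strand): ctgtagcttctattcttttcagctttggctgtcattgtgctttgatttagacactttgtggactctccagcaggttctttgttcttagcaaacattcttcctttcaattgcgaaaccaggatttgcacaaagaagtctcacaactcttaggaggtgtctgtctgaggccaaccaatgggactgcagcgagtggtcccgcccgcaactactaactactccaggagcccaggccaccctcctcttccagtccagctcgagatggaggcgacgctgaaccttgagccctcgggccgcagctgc
Acot2 (chr12:83987611-83987910, plus strand): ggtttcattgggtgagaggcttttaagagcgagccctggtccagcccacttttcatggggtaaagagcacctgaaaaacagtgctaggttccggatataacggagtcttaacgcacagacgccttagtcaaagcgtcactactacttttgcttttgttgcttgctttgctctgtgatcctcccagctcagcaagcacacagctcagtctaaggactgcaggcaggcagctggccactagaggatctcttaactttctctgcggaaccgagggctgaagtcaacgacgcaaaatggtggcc
Ucp3 (chr7:100472741-100473040, plus strand): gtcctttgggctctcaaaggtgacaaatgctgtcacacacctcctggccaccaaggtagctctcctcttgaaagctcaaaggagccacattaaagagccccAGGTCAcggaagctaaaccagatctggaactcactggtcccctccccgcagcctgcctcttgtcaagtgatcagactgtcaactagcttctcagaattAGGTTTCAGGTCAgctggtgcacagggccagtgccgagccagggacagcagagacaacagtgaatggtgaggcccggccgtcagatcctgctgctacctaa
Plin2 (chr4:86670010-86670309, minus strand): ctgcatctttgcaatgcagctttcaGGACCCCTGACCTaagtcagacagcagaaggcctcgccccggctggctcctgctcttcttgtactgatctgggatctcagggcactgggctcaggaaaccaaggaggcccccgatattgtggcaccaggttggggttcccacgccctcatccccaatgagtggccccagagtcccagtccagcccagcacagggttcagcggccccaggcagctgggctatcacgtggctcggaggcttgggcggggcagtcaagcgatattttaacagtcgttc

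RefSeq windows were matched for 7 of the 8 genes, all but Angptl4, and Plin5 had 2 windows. None of these 8 windows held AGGTCANAGGTCA without a mismatch on either strand, and 0.0396% of the 32851 mouse windows did. With at most 2 mismatches, it was matched in Ucp3, beginning 51 bases before the start, and on the reverse strand of Plin2, beginning 225 bases before the start. A match of that kind occurred in 3.86% of all windows. Ucp3 stood 3.87-fold higher in Cisplatin than in Normal muscle and Plin2 1.2-fold, and the part of the element in these values was not tested. The closest stretch had 4 mismatches in Acot1, Pdk4 and Ucp2 and 3 in Acot2 and in both Plin5 windows. A single copy of the repeat, AGGTCA, occurred in Ucp3, Plin2 and Plin5 and in 16.3% of all windows, and it overlaps the longer match in Ucp3 and in Plin2. The forkhead motif GTAAACA, bound by Foxo1, occurred in none of the 8 windows and in 3.65% of all. A match is a description of these letters and not a site, and the windows say nothing of elements elsewhere.

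Pdk4 encodes pyruvate dehydrogenase kinase 4, which phosphorylates and shuts down the pyruvate dehydrogenase complex and so spares glucose. It lies on the minus strand of chromosome 6 at 5483351 to 5496309. Pdk4 had 223, 206 and 287 CPM in RP libraries, 1639, 2062 and 699 CPM in Cisplatin libraries and 80.7, 273 and 138 CPM in Normal libraries. It was the most abundant of the 8 genes by mean level in all 3 groups. Its coefficient of variation was 17.9% in RP, 47.5% in Cisplatin and 60.1% in Normal libraries, with Cisplatin replicate 3 far below its group and still above every RP and Normal library. Means were 239 ± 42.7 CPM in RP libraries, 1467 ± 697 CPM in Cisplatin libraries and 164 ± 98.5 CPM in Normal libraries (SD, n = 3 each). Its log2 fold change was 3.16 ± 0.42 in Cisplatin against Normal, -2.62 ± 0.41 in RP against Cisplatin and 0.54 ± 0.39 in RP against Normal. Without Normal replicate 2, whose 273 CPM was the highest of its group, these values became 3.76 in Cisplatin against Normal and 1.13 in RP against Normal.

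Ucp3 and Ucp2 encode mitochondrial carriers of the inner membrane, Ucp3 chiefly in skeletal muscle and Ucp2 in many tissues, immune cells included. They are neighbours on the plus strand of chromosome 7, Ucp3 at 100472990 to 100486432 and Ucp2 at 100493337 to 100502020, with 6904 bp between them. Ucp3 had 71.2, 68.3 and 91.2 CPM in RP libraries, 186, 253 and 242 CPM in Cisplatin libraries and 46, 78.9 and 51 CPM in Normal libraries. The Cisplatin libraries stood clear of the rest, and RP and Normal overlapped. In log2 terms, Ucp3 differed by 1.95 ± 0.20 in Cisplatin against Normal, -1.56 ± 0.20 in RP against Cisplatin and 0.39 ± 0.20 in RP against Normal.

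Ucp2 moved far less. It had 10.1, 7.45 and 12.3 CPM in RP libraries, 17.3, 15.7 and 10.4 CPM in Cisplatin libraries and 6.88, 9.25 and 10.1 CPM in Normal libraries. The lowest Cisplatin library barely cleared the highest Normal library and lay within the RP range. For Ucp2, the log2 fold change was 0.72 ± 0.26 in Cisplatin against Normal, -0.54 ± 0.25 in RP against Cisplatin and 0.19 ± 0.26 in RP against Normal. Ucp2 no longer passed the test in Cisplatin against Normal when scaled by library size alone (0.67), or without Normal replicate 1 (0.59), Cisplatin replicate 1 (0.58) or Cisplatin replicate 2 (0.66). In RP against Cisplatin, among all settings run, it passed only without Cisplatin replicate 3, at -0.73.

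For every Ucp2 count there were 7.03, 9.17 and 7.41 Ucp3 counts in RP libraries, 10.8, 16.1 and 23.4 in Cisplatin libraries and 6.68, 8.52 and 5.05 in Normal libraries. All 3 Cisplatin ratios lay above all others. Ucp2 overlaps Dnajb13 on the opposite strand by 305 bp, and Dnajb13 had 0 to 3 counts per RP library, 3 to 15 per Cisplatin library and 0 to 3 per Normal library. Ucp3 overlaps the antisense gene Gm10603 by 1857 bp, and Gm10603 was not among the counted symbols. The strand setting of the counting is not given in the sources used here. Reads of these genes and their partners therefore cannot be told apart within the shared bases. Markers of macrophages, cells known to express Ucp2, summed to 112 to 179 CPM in RP libraries, 48.2 to 90.5 CPM in Cisplatin libraries and 223 to 292 CPM in Normal libraries. Of these 10 markers, 8 fell and 1 rose in Cisplatin against Normal, beside 28.2% and 26.3% of all genes. The part of macrophages in the Ucp2 value was not tested.

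Angptl4 encodes a secreted inhibitor of lipoprotein lipase, the enzyme that frees fatty acids from circulating lipoproteins. It lies on the minus strand of chromosome 17 at 33773750 to 33781830. Angptl4 had 9.20, 9.44 and 13.4 CPM in RP libraries, 31.8, 34.8 and 28.1 CPM in Cisplatin libraries and 2.66, 13.8 and 5.05 CPM in Normal libraries. The Cisplatin libraries were close together and above all others, whereas the Normal libraries were the most uneven set of the 8 genes, with a coefficient of variation of 81.6%. The log2 fold change of Angptl4 was 2.13 ± 0.40 in Cisplatin against Normal, -1.56 ± 0.38 in RP against Cisplatin and 0.57 ± 0.40 in RP against Normal. Without Normal replicate 2, it was 3.04 in Cisplatin against Normal and 1.47 in RP against Normal, and the value in RP against Normal then passed the test.

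Plin5 and Plin2 encode perilipins, proteins that coat lipid droplets. Plin5 is known from tissues that burn fat, where it tethers droplets to mitochondria, and Plin2 from droplets in nearly every cell. Plin5 lies on the minus strand of chromosome 17 at 56111601 to 56117596, and Plin2 on the minus strand of chromosome 4 at 86648386 to 86670060. Plin5 had 33.8, 54.2 and 72.7 CPM in RP libraries, 168, 171 and 142 CPM in Cisplatin libraries and 23.1, 29.3 and 52.7 CPM in Normal libraries. Its Cisplatin libraries stood apart from the others, while RP and Normal overlapped. The log2 fold change of Plin5 was 2.20 ± 0.29 in Cisplatin against Normal, -1.58 ± 0.28 in RP against Cisplatin and 0.61 ± 0.29 in RP against Normal.

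Plin2 was the exception among the 8. It had 16.5, 32.1 and 25.3 CPM in RP libraries, 29.1, 45.5 and 28.3 CPM in Cisplatin libraries and 20, 35 and 31 CPM in Normal libraries. The 3 groups overlapped throughout, and replicate 2 was the highest library of each. The log2 fold change of Plin2 was 0.26 ± 0.26 in Cisplatin against Normal, -0.48 ± 0.26 in RP against Cisplatin and -0.22 ± 0.26 in RP against Normal. With the replicate number as a block, the value in RP against Cisplatin was -0.50 and passed the test. Plin5 counts per Plin2 count were 2.04, 1.69 and 2.87 in RP libraries, 5.76, 3.76 and 5.03 in Cisplatin libraries and 1.15, 0.835 and 1.70 in Normal libraries. Every Cisplatin ratio was above every RP and Normal ratio.

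Angptl4 and Plin2 are also expressed by fat cells, and markers of these cells moved with the groups. The 10 adipocyte markers summed to 2454 to 3111 CPM in RP libraries, 513 to 1017 CPM in Cisplatin libraries and 2290 to 4961 CPM in Normal libraries, and none of them was at 0 throughout a group. Of these, 9 fell and 0 rose in Cisplatin against Normal, beside 28.2% and 26.3% of all genes. In RP against Cisplatin, 9 rose and 0 fell, beside 24.6% and 24.2% of all genes. Fabp4 and Car3 gave the largest parts of the sum. Their means were 1397 and 1164 CPM in Normal and 490 and 187 CPM in Cisplatin libraries. Their coefficients of variation in Normal libraries were 48.6% and 6.05%, against 76.8% to 128% for the other markers. The sum thus rests largely on Fabp4 and Car3, and whether fat cells were their source in this muscle was not tested. Between Cisplatin and Normal libraries, Adipoq, Cfd, Lep, Cidec and Cidea overlapped, and Retn, Plin1, Fabp4, Car3 and Adrb3 did not. Angptl4 thus stood higher in Cisplatin libraries, where the sum of the 10 markers was lower. The part of fat cells in the values of Angptl4 and Plin2 was not tested. Normal replicate 2, the highest of its group for Angptl4, Pdk4, Ucp3 and Plin2, also had the highest adipocyte sum, 4961 CPM.

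**Figure D2:**
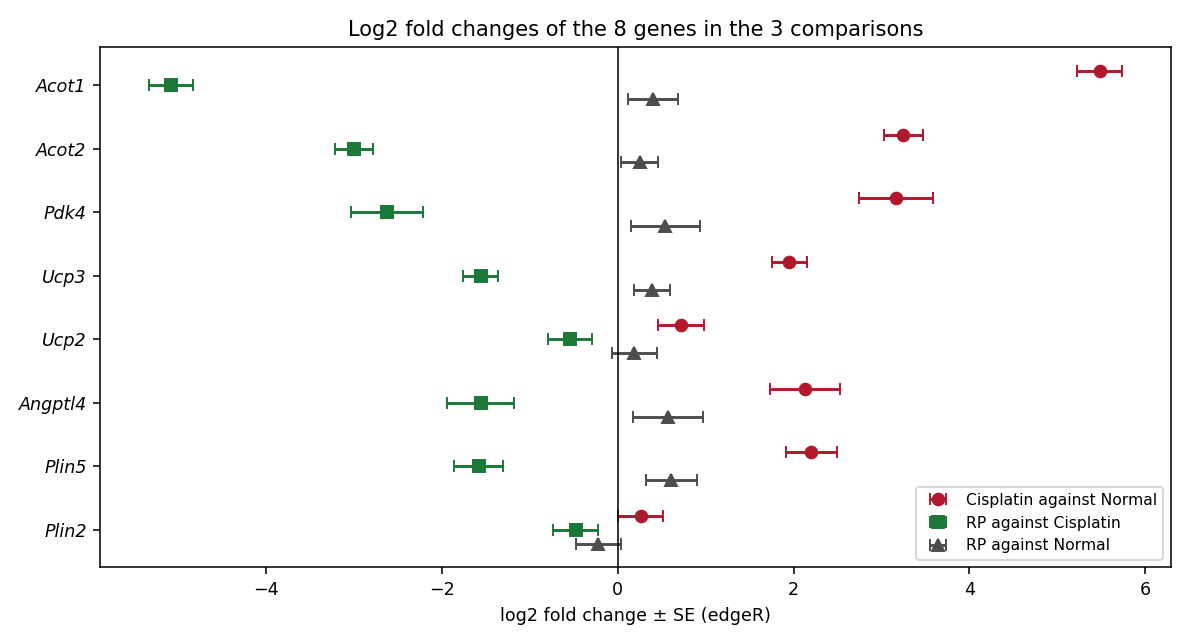
Log2 fold change of each of the 8 genes with its SE (x axis, edgeR) in each of the 3 comparisons, fitted over all 9 libraries. Acot1 lies farthest out in the comparisons with Cisplatin libraries (5.48 and -5.08), Ucp2 and Plin2 lie nearest to 0, and all RP against Normal values lie between -0.22 and 0.61.

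Summed over the 8 genes, RP libraries held 444, 444 and 622 CPM, Cisplatin libraries 2896, 3499 and 1985 CPM and Normal libraries 242, 507 and 380 CPM. Pdk4 made up 46.1% to 50.2% of this sum in RP libraries, 35.2% to 58.9% in Cisplatin libraries and 33.4% to 53.8% in Normal libraries. Pdk4 was the largest part of the sum in every library, and Cisplatin replicate 3 had both the lowest Pdk4 and the lowest sum of its group. Acot1 made up 1.05% to 1.33% in RP libraries, 5.59% to 8.15% in Cisplatin libraries and 0.958% to 1.55% in Normal libraries, so its share shifted without overlap. Ucp2 and Plin2 took a smaller share of the sum in each Cisplatin library than in any other.

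**Figure D3:**
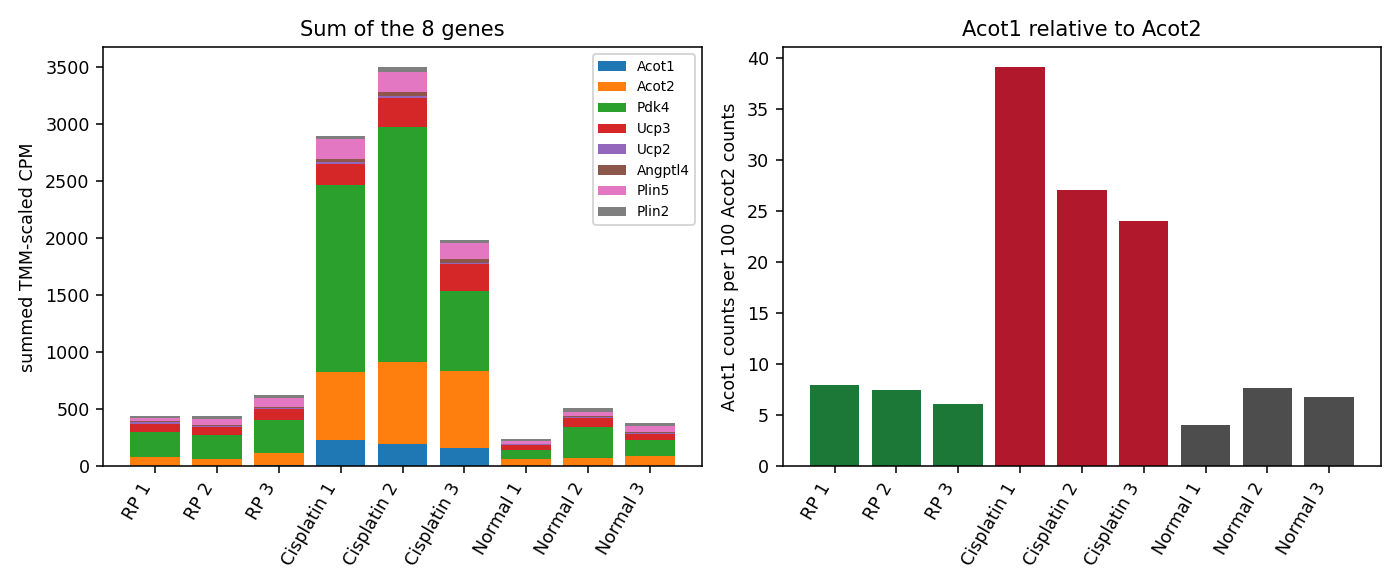
Left, TMM-scaled CPM summed over the 8 genes in each library (y axis), stacked by gene. Right, Acot1 counts per 100 Acot2 counts in each library. Bars start at 0. Cisplatin libraries reach 1985 to 3499 CPM, and Pdk4 and Acot2 fill most of each bar. The ratio is 24 to 39.1 in Cisplatin libraries and at most 7.97 elsewhere.

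The order of mean levels was nearly shared by the groups apart from Acot1. In RP muscle it ran Pdk4, Acot2, Ucp3, Plin5, Plin2, Angptl4, Ucp2 and Acot1, where Acot2 and Ucp3, Ucp3 and Plin5, and Angptl4 and Ucp2 overlapped between neighbours. In Cisplatin muscle it ran Pdk4, Acot2, Ucp3, Acot1, Plin5, Plin2, Angptl4 and Ucp2, with overlap between Pdk4 and Acot2, between Ucp3, Acot1 and Plin5 in turn, and between Plin2 and Angptl4. In Normal muscle it ran Pdk4, Acot2, Ucp3, Plin5, Plin2, Ucp2, Angptl4 and Acot1, and the only neighbours that did not overlap were Plin2 and Ucp2. Acot1, the least abundant of the 8 in RP and Normal muscle, thus had rank 4 in Cisplatin muscle.

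Libraries within a group also differed along the 8 genes together. RP replicate 3 was the highest of its group for 7 of the 8 genes, Cisplatin replicate 3 the lowest of its group for 6, and Normal replicate 1 the lowest of its group for all 8. Profiles were set side by side by the root mean square distance between centred log2(CPM + 1) values over the 9 libraries. Profiles were not scaled, so this distance holds the size of a change as well as its shape. The closest pair was Ucp3 and Angptl4 at 0.35. Ucp2 and Plin2 followed at 0.43 and Ucp3 and Plin5 at 0.44, and the farthest pair was Acot1 and Plin2 at 2.25. The neighbours on chromosome 12, Acot1 and Acot2, stood 0.94 apart, and those on chromosome 7, Ucp2 and Ucp3, 0.65.

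By the same distance, to which the size of a change adds, the nearest of 9061 other genes that averaged 5 CPM or more were found for each of the 8. Acot1 was nearest to Fbxo32 (0.46) and Trim63 (0.54), which encode the ubiquitin ligases that mark muscle proteins for breakdown in wasting muscle. Acot2 was nearest to Fam134b (0.18) and Acss1 (0.21). Pdk4 was nearest to Snhg6 (0.44) and Serpina3n (0.46). The smallest distances were those of Ucp2 and Ucp3. Ucp3 was nearest to Zfand5 (0.16) and Cdkn2aipnl (0.16), and Ucp2 to Slc20a2 (0.14) and Polr3b (0.16). Angptl4 was nearest to Fkbp5 (0.25) and Pnpla2 (0.28), Plin5 to Catsper2 (0.30) and Ip6k3 (0.33), and Plin2 to Usp20 (0.20) and Pxmp4 (0.21). With a pseudocount of 5 CPM in place of 1, 11 of these 16 genes were named again. Pnpla2 encodes the lipase that starts the breakdown of stored triglyceride.

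The receptors through which the 8 genes are known to be switched on did not move as 1 group. Counts of each list stand beside 26.3% risen and 28.2% fallen of all genes in Cisplatin against Normal, and 24.6% and 24.2% in RP against Cisplatin. Of 18 genes for PPARs, RXRs and coregulators, 6 rose and 5 fell in Cisplatin against Normal, with a median of -0.03 against -0.08 over all genes. Ppard, the gene of PPAR delta, rose, with 11.6 ± 2.13 CPM in RP, 18.6 ± 3.86 CPM in Cisplatin and 10.2 ± 2.60 CPM in Normal libraries (SD, n = 3 each; log2 fold change 0.86 ± 0.24, edgeR adjusted p = 0.00698). Ppara, the gene of PPAR alpha, fell by 0.71 ± 0.28 on the log2 scale (edgeR adjusted p = 0.0477), a value that rested on Normal replicate 3 and was -0.25 without it (edgeR adjusted p = 0.408). Over all alternatives the adjusted p of this Ppara value was 0.00879 to 0.408, and limma-voom gave 0.0715. Pparg fell by 1.60 ± 0.41 (edgeR adjusted p = 0.00454), in the libraries in which the adipocyte marker sum was also lower. The part of fat cells in this Pparg value was not tested. The largest falls and rises among the partners were those of Rxrg, at a log2 fold change of -2.51 ± 0.20 (edgeR adjusted p = 4.66e-07), and Lpin1, at 1.33 ± 0.19 (edgeR adjusted p = 5.76e-05). The coactivator Ppargc1a fell by 1.55 ± 0.23 and Rxra rose by 0.73 ± 0.13 on the log2 scale (edgeR adjusted p = 8.81e-05 and 0.000386).

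Of the 18 receptor and coregulator genes, 5 rose and 7 fell in RP against Cisplatin, with a median of -0.08. Rxrg rose by 2.5 ± 0.20, Ppargc1a by 1.07 ± 0.23 and Pparg by 1.40 ± 0.41 on the log2 scale, whereas Lpin1 fell by 1.14 ± 0.19 and the corepressor gene Ncor1 by 0.67 ± 0.14. Ppard fell by 0.68 ± 0.23 (edgeR adjusted p = 0.026), a call lost with library size alone and without Cisplatin replicate 1 or RP replicate 2. Ppara had a log2 fold change of -0.22 ± 0.29 and was not called. Without RP replicate 2, 3 of these genes rose and 4 fell.

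Among other PPAR targets of fatty acid handling, 29 were tested, and 8 rose (27.6%, against 26.3% of all genes) and 2 fell (6.9%, against 28.2%) in Cisplatin against Normal. Their median was 0.30, and without Normal replicate 3 the number that rose was 16. The largest rise was that of Mlycd, whose enzyme degrades malonyl-CoA, with 111 ± 7.14 CPM in RP, 388 ± 36.7 CPM in Cisplatin and 76.1 ± 11.9 CPM in Normal libraries (log2 fold change 2.35 ± 0.15, edgeR adjusted p = 7.75e-08). Eci2 and Acadl, which serve fatty acid oxidation, rose by 1.78 ± 0.13 and 1.24 ± 0.19 on the log2 scale. The classical targets Cpt1b and Fabp3 were not called, at 0.42 ± 0.18 and 0.51 ± 0.24 (edgeR adjusted p = 0.0659 and 0.0854). Both were called upward by DESeq2, with no filter, with the replicate number as a block and without Normal replicate 3, where Fabp3 was at 0.87, and Cpt1b also without RP replicate 3. RP libraries against Cisplatin libraries gave 6 fallen (20.7%, against 24.2% of all genes) and 1 risen of the 29, with a median of -0.25. The shares that rose in Cisplatin against Normal and fell in RP against Cisplatin were thus near those of all genes. Mlycd, Eci2 and Acadl were among the fallen, at log2 fold changes of -1.81 ± 0.14, -1.21 ± 0.13 and -1.02 ± 0.19.

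Around Angptl4 and the perilipins, 12 genes of lipoprotein lipase and triglyceride breakdown went in both directions, with 3 risen and 5 fallen in Cisplatin against Normal. Lpl, the gene of the lipase that Angptl4 inhibits, had 1116 ± 165 CPM in RP, 2237 ± 204 CPM in Cisplatin and 1578 ± 394 CPM in Normal libraries. Its log2 fold change in Cisplatin against Normal was 0.50 ± 0.18 (edgeR adjusted p = 0.0334), a call lost with library size alone, with the 5 CPM filter and without Normal replicate 1 or 2 or Cisplatin replicate 2, and in RP against Cisplatin it fell by 1 ± 0.19. Pnpla2, the adipose triglyceride lipase gene, rose by 1.95 ± 0.22 in Cisplatin against Normal and fell by 1.48 ± 0.22 in RP against Cisplatin. Lipe, G0s2 and Mgll, for hormone-sensitive lipase, an inhibitor of the Pnpla2 enzyme and monoglyceride lipase, all fell in Cisplatin against Normal, at log2 fold changes of -2.19 ± 0.38, -2.08 ± 0.36 and -1.09 ± 0.18. Lipe rose by 2.26 ± 0.38 and Mgll by 0.93 ± 0.18 in RP against Cisplatin. Lipe, G0s2 and Mgll are also abundant in fat cells, whose marker sum was lower in the same libraries, and that part was not tested. Among the 12 genes, 6 rose and 4 fell in RP against Cisplatin, with a median of 0.36, and the median in Cisplatin against Normal was -0.34.

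Around Pdk4, 13 genes of the pyruvate dehydrogenase complex, its other kinases and phosphatases and the pyruvate carrier included 1 that rose and 6 that fell in Cisplatin against Normal, with a median of -0.41. The phosphatase gene Pdp1, whose product reverses the phosphorylation that Pdk4 sets, had 215 ± 23.1 CPM in RP, 34.4 ± 5.17 CPM in Cisplatin and 165 ± 7.83 CPM in Normal libraries. It fell by 2.26 ± 0.14 on the log2 scale in Cisplatin against Normal (edgeR adjusted p = 7.85e-08) and rose by 2.64 ± 0.14 in RP against Cisplatin. The second phosphatase gene, Pdp2, went the other way, at 1.64 ± 0.20 in Cisplatin against Normal and -2.35 ± 0.21 in RP against Cisplatin. Dlat and Mpc2, for a core subunit and a subunit of the carrier, had log2 fold changes of -1.32 ± 0.19 and -0.86 ± 0.15 in Cisplatin against Normal and of 1.14 ± 0.19 and 0.82 ± 0.15 in RP against Cisplatin, and passed the test in both. The sister kinases Pdk1, Pdk2 and Pdk3 were not called, with log2 fold changes of -0.20, 0.02 and -0.81 in Cisplatin against Normal, against 3.16 for Pdk4. Of the 13, 4 rose and 2 fell in RP against Cisplatin, with a median of 0.27, and 7 rose and 1 fell with library size alone.

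Paralogs of the 8 genes did not share their direction. Of 23 listed, 16 were tested, and 3 rose and 7 fell in Cisplatin against Normal, with a median of -0.59. Angptl1 and Angptl2 had log2 fold changes of -4.46 ± 0.40 and -3.25 ± 0.26 in Cisplatin against Normal, and rose by 3.12 ± 0.41 and 2.78 ± 0.26 in RP against Cisplatin. Among perilipins, Plin1, a fat cell marker, fell by 3.09 ± 0.57 in Cisplatin against Normal, whereas Plin3 and Plin4 rose, at 0.81 ± 0.16 and 1.01 ± 0.22. The values in RP against Cisplatin were 3.29 ± 0.56 for Plin1 and -0.70 ± 0.16 for Plin3, and both passed the test. Paralogs numbered 6 risen and 2 fallen in RP against Cisplatin, with a median of 0.61, and without RP replicate 2 the number that rose was 3. Angptl7 was the only gene of the 6 lists that edgeR called in RP against Normal with all 9 libraries and the settings used here, at -2.21 (edgeR adjusted p = 0.00871), and that call was lost without Normal replicate 1 or RP replicate 1. DESeq2 and limma-voom also called Angptl1, which had 5.47 ± 2.12 CPM in RP and 13.9 ± 2.61 CPM in Normal libraries. The log2 fold change of Angptl7 in Cisplatin against Normal was -2.80 ± 0.35.

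Of 10 other transcription factors known to act on these genes, 5 rose and 2 fell in Cisplatin against Normal, with a median of 0.96. Cebpd had 199 ± 26.3 CPM in RP, 709 ± 136 CPM in Cisplatin and 127 ± 40.5 CPM in Normal libraries, a log2 fold change of 2.49 ± 0.22 in Cisplatin against Normal (edgeR adjusted p = 1.05e-06). Foxo1, a fasting-activated factor known to act on Pdk4, rose by 1.71 ± 0.23, Klf15 by 1.26 ± 0.22 and Esrra by 1.12 ± 0.13. Of the 10, 5 fell and 2 rose in RP against Cisplatin, with a median of -0.61. Among those that fell were Cebpd, Esrra and Foxo1, at -1.84 ± 0.21, -1.35 ± 0.13 and -0.87 ± 0.22, and Myod1 rose by 1.04 ± 0.26. With RLE scaling the split was 5 fallen and 1 risen, and with library size alone 4 and 3. In RP against Normal, edgeR called 0 genes in 5 of the 6 lists, and in those lists 15 genes had an unadjusted p under 0.05, DESeq2 called 3 and limma-voom 0.

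**Figure D4:**
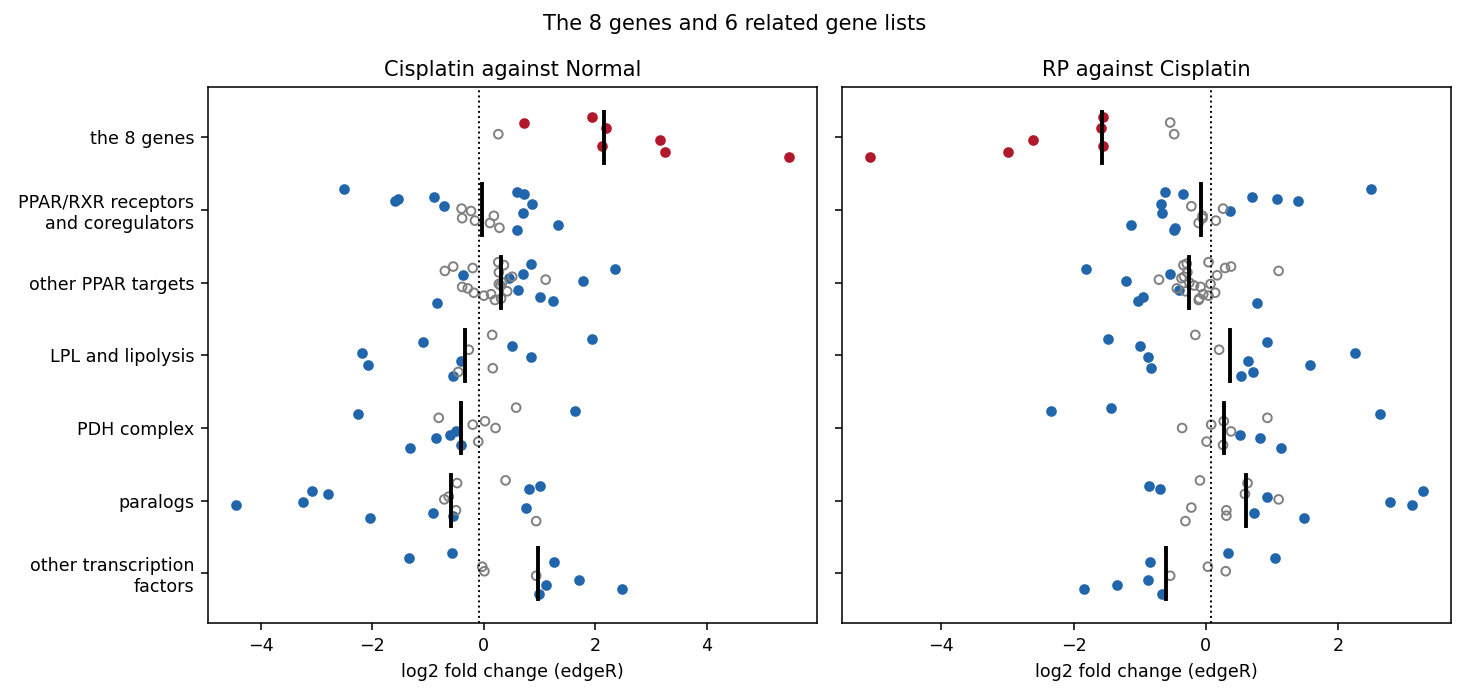
Log2 fold change (x axis) of each tested gene of the 8 and of 6 related lists in Cisplatin against Normal (left) and RP against Cisplatin (right). Filled points passed the edgeR test at an adjusted p under 0.05, open points did not, bars are medians and the dotted line is the median of all genes tested. The 8 genes were chosen with these results known. Their median is 2.17 on the left and -1.57 on the right.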

How the data were processed

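Each library is a Lexogen QuantSeq 3′ library made from 500 ng of Trizol-extracted total RNA, per the labels' protocols. The authors deposited 1 table of raw counts per library, whose 23282 rows each pair 1 symbol with 1 count. Bowtie2, edgeR and the mm10 build are named in the submitters' processing notes, and the annotation and strand setting were not given in the sources used here.

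The 79 rows that share 35 symbols were summed, and no column was left unused. Replicates differed by more than counting error (chi-square per degree of freedom 11.3 to 28.9), so none was merged. From the deposited counts, edgeR 4.0.16 in R 4.3.3 kept 12859 genes (filterByExpr), scaled by TMM, fitted 1 coefficient per group to all 9 libraries (glmQLFit) and tested 3 comparisons (glmQLFTest), with Benjamini-Hochberg adjustment over all genes and a threshold of 0.05. SEs are the log2 fold change over the square root of F. With 3 libraries a group, only large changes are resolved, and floors of 3 counts cover counting error only.

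The 8 genes and the lists beside them were chosen with earlier results of these data known. All 8 passed the filter. Named list genes are the up to 4 called genes of smallest p per comparison, with Ppara, Ppard, Pparg, Lpl, Fabp3 and Cpt1b always given, and some genes of this rule are not reported here. Pdk1 to Pdk3, Plin3, Plin4 and the genes of low count were added to these once their values had been seen. Alternatives were RLE scaling, library size alone, DESeq2 1.42.0, limma-voom (limma 3.58.1), no filter, a filter of 5 CPM or more in at least 3 libraries, the replicate number as a block, the 2 groups alone and leaving out each library. The procedure was tested on simulated data. Positions come from GENCODE M21 and promoter windows from RefSeq (GRCm38.p6). Figures used matplotlib 3.10.9 in Python 3.11.15.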

Additional observations from a re-analysis of the deposited data

How the results depend on the processing

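Refits of the 8 genes under 17 settings gave 408 values, of which 401 kept their side of the threshold, 4 lost their call and 3 gained one. Among the 401, 1 changed sign, that of Acot2 in RP against Normal, which was never called and was -0.03 without RP replicate 3. For 294 values of the listed genes, 4965 refits left 4784 on their side of the threshold, lost 112 calls and gained 69, and 129 uncalled values and 0 called ones changed sign. Leaving out each library in turn gave 6 to 7 of the 8 called higher in Cisplatin against Normal, 6 to 7 called lower in RP against Cisplatin and 0 to 1 called higher in RP against Normal. The median over all genes moved by over 0.1 in RP against Cisplatin with library size alone, to 0.21 against 0.07, and was then -0.15 in Cisplatin against Normal and 0.06 in RP against Normal. Replicate numbers were not taken to pair the libraries. The 9 correlations of same-numbered libraries' deviations were -0.15 to 0.18, against -0.21 to 0.13 for libraries of different number. Of the 9, 2 exceeded 0.1, both between RP and Cisplatin libraries (0.18 and 0.17). These correlations cannot exclude a pairing, since the labels do not say what the numbers stand for. With the replicate number as a block, 7 of the 8 were called higher in Cisplatin against Normal, and 7 lower in RP against Cisplatin, Plin2 among them at -0.50. The block called 1 pyruvate dehydrogenase gene lower in RP against Cisplatin where the fit without it called 2, and the count was also 1 with library size alone, no filter, the 5 CPM filter, DESeq2 and the 2 groups alone, and 1 to 2 without a library. Genes of this list called higher in RP against Cisplatin numbered 4, and 7 with library size alone. Other PPAR targets lower in Cisplatin against Normal numbered 2, and 1 with RLE scaling and with no filter (1 to 2 without a library), and those higher numbered 7 to 16 without a library. Other PPAR targets higher in RP against Cisplatin numbered 1, and 2 with no filter (1 to 2 without a library). Other transcription factors higher in RP against Cisplatin numbered 2, and 1 with RLE scaling, no filter and DESeq2 (1 to 2 without a library). Receptor and coregulator genes called in RP against Cisplatin numbered 3 to 5 higher and 4 to 7 lower without a library, and paralogs 3 to 7 higher. In RP against Normal the counts were small and moved most: 24 genes were higher and 41 lower, with 36 and 24 with library size alone, 123 and 170 with no filter, 103 and 126 with DESeq2, and 8 to 59 and 14 to 62 without a library. In the same comparison, other PPAR targets called higher numbered 0, with 1 under library size alone, 1 with no filter and 2 with DESeq2. Other transcription factors called higher numbered 0, with 1 with no filter, 1 with DESeq2 and 0 to 3 without a library, 3 being the count without Normal replicate 2. Receptor genes called lower numbered 0, with 1 with no filter. Paralogs called lower numbered 1, with 3 with no filter, 2 with DESeq2, 2 with limma-voom and 0 to 2 without a library. The cause of these shifts was not tested. Ucp2 and Angptl4, with as few as 57 and 22 counts in a library, carry the widest counting error of the 8 beside Acot1.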

Other observations

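Several relatives of the 8 genes were at or near the floor, taken as 3 counts over a group. Ucp1, the uncoupling protein gene of brown fat, had 0 counts in RP libraries and 0 in Cisplatin libraries, which allows up to 0.101 CPM in RP and 0.109 CPM in Cisplatin, against 60 counts over the Normal libraries, 0 to 32 per library. Fgf21, a PPAR alpha target of the fasted liver, had 5 counts in RP libraries, all in 1 library, 0 in Cisplatin libraries and 1 in Normal libraries. Of the thioesterase genes related to Acot1 and Acot2, Acot3 had 6 counts in RP, 12 in Cisplatin and 1 in Normal libraries, and Acot4 had 12 in RP, 10 in Cisplatin and 4 in Normal libraries. Acot6 had 7 counts in RP, 8 in Cisplatin and 2 in Normal libraries, and Acot5 had 0 in RP, 3 in Cisplatin and 3 in Normal libraries. These counts are too few for a comparison at this depth. Neutrophil markers, of which 7 of 8 were in the tables, summed to 3.77 to 10.8 CPM in RP, 8.33 to 53.3 CPM in Cisplatin and 3.82 to 46.3 CPM in Normal libraries, with Elane at 0 in RP and Cisplatin. Endothelial markers summed to 288 to 413 CPM in RP, 266 to 345 CPM in Cisplatin and 313 to 376 CPM in Normal libraries. Of these 8 markers, 4 fell and 1 rose in Cisplatin against Normal, beside 28.2% and 26.3% of all genes. In RP against Cisplatin, 3 rose and 0 fell, beside 24.6% and 24.2% of all genes.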
